A study of Mus musculus with 12 samples.

Results

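The genes of branched-chain amino acid breakdown were examined in the brown fat of ob/ob mice, which lack leptin and become obese. The 29 genes were chosen by name from the pathway after the expression differences between these groups had been seen. All 29 were measured, among 18193 genes tested, and Mut is listed under its newer symbol Mmut. They run from the transporters that bring leucine, isoleucine and valine into the cell and the mitochondrion to the enzymes that hand their carbon to the citric acid cycle. All 12 mice were males aged 3 months on normal chow, and 1 array was run per mouse. In the anti-FGFR1 group, 6 mice received a single injection into the abdominal cavity of 1 mg/kg of an agonistic antibody against the receptor FGFR1. In the control IgG group, 6 pair-fed mice were injected with a control antibody. Tissue was taken on day 4. The list was selected on the same comparison, so the differences of its genes are given as a description, with no p-value for any of them, and nothing is read from their number.

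Breakdown of leucine, isoleucine and valine starts with the reversible removal of the amino group by a branched-chain aminotransferase. The branched-chain ketoacid dehydrogenase complex in the mitochondrial matrix then commits the carbon skeletons to oxidation; a kinase switches the complex off by phosphorylation and a phosphatase switches it on again. Leucine ends as acetyl-CoA and acetoacetate, valine as propionyl-CoA, and isoleucine as acetyl-CoA and propionyl-CoA, which enters the citric acid cycle through a biotin-dependent carboxylase and a cobalamin-dependent mutase. Active brown fat is known to take up these amino acids and to oxidise them in its mitochondria.

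Transcripts at each stage from transamination to the propionyl-CoA route included some that were higher after anti-FGFR1, by modest amounts. A gene is called here when its limma p-value, adjusted by Benjamini-Hochberg over all 18193 genes, is under 0.05. For the 29 genes a call is only a label and no test, since the list was chosen on the same comparison. By that rule 12 of the 29 genes were called higher and 0 lower, beside 8.03% of all genes called in either direction, 2.94% higher and 5.09% lower. At an unadjusted limma p under 0.05, 16 of the 29 were higher and 0 lower, beside 1814 higher and 2267 lower of the 18193 genes; nothing is read from this count either. The called genes were Bcat2, Bckdhb, Dbt, Ppm1k, Mccc1, Mccc2, Hibch, Aldh6a1, Pcca, Mcee, Mut and Mmachc, with differences between 0.20 and 0.53 on the log2 scale, or 1.15-fold to 1.45-fold. The other 17 lay between -0.06 and 0.23. Differences above 0 were found for 25 of the 29, with a median of 0.15, against 53.4% of all genes and a median of 0.01. All genes are not matched to the list in brightness. Most of the 29 were bright, with means above those of between 26.3% (Abat) and 99.1% (Acat1) of all genes. In 6 genes (Bcat2, Bckdhb, Dbt, Ppm1k, Mcee and Mmachc) every anti-FGFR1 mouse was above every control mouse, which held for 1.57% of all genes. The reverse held for 0 of the 29 and 3.55% of all genes, and groups apart in either direction for 5.12%. Within a group the genes varied little, with SDs from 0.03 to 0.21 and a median SD of 0.09.

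**Figure D1:**
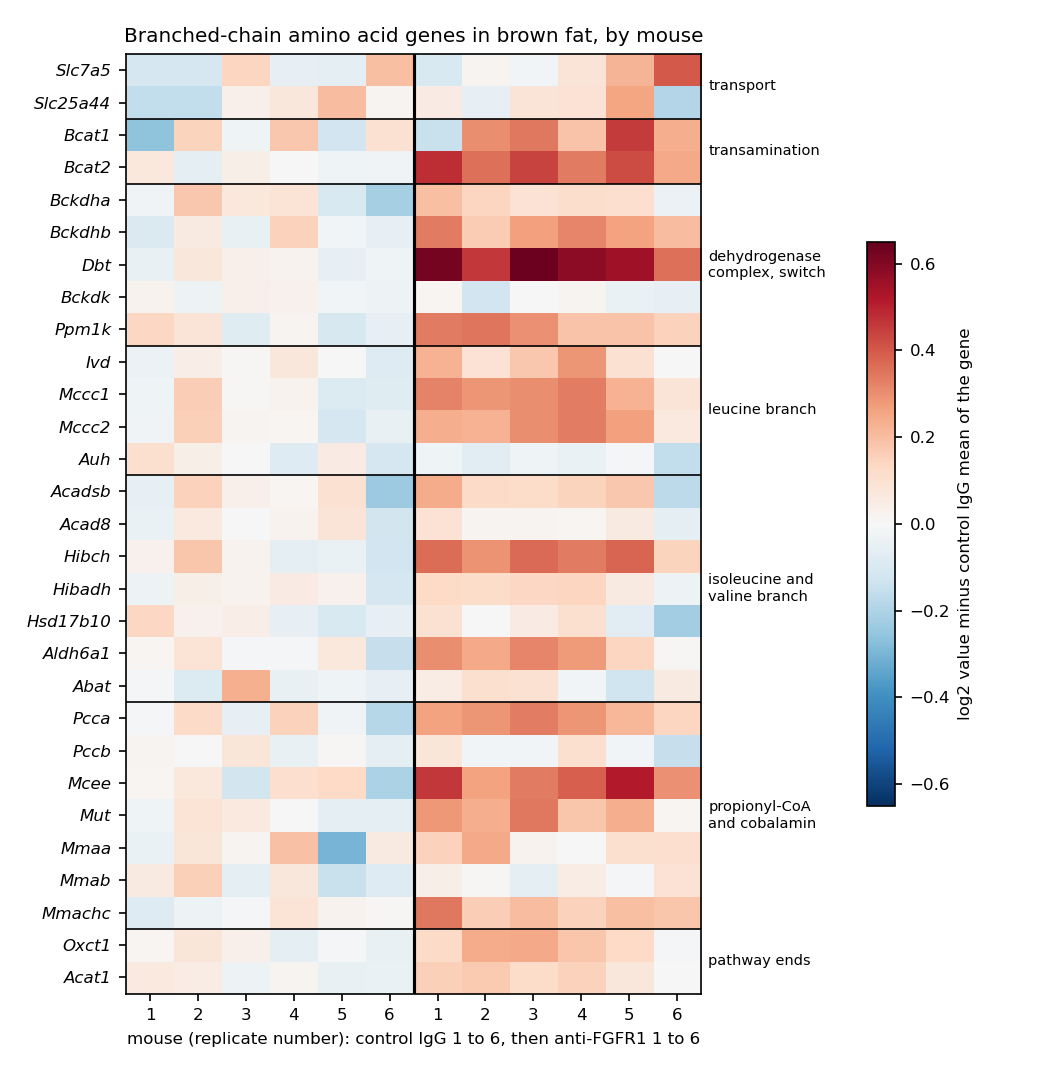
Log2 expression of the 29 genes (rows, ordered by pathway step) in each mouse (columns), drawn as the difference from the gene's control IgG mean. Red marks values above that mean and blue values below it; Dbt has the darkest row in the anti-FGFR1 mice, while Bckdk, Acad8 and Pccb stay pale, and anti-FGFR1 mouse 6 is paler than the other anti-FGFR1 mice in most rows.

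The arrays hold log2 values per probe set with medians between 7.19 and 7.23. Over all genes 535 were called higher and 926 lower, a balance of 63.4% lower that became 51.0% lower (730 higher and 760 lower) after a further quantile normalization. The tissue label was borne out by its markers: Ucp1, the uncoupling protein, and Cidea, a lipid droplet protein, were among the brightest genes (control means 14.5 and 14.4). Of 10 brown adipocyte markers 2 were called higher, Elovl3 and Cox7a1, and Ucp1 differed by 0.03. Endothelial markers were called lower in 7 of 11, and macrophage markers higher in 3 of 12. Of 18 skeletal muscle markers 0 were called by limma and 0 had an unadjusted p under 0.05. Only 1 of the 18 was above 0, and their mean differed by -0.56, with SDs of 0.79 in controls and 1.54 after anti-FGFR1. Their mean per array ran from 7.03 to 11.43. Anti-FGFR1 mouse 5 was the lowest, below the median of all genes on its array (7.97), and control mouse 6 was the lowest control (9.32). White fat markers went both ways, with 1 of 10 called higher (Retn, 0.69) and 2 lower (Lep, -0.56, and Npr3, -0.31). In whole tissue, fewer cells of a type and less RNA per cell cannot be told apart.

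Upstream sequence is shown for 3 of the 6 genes whose groups did not overlap, to set the letters before their start sites beside their levels. RefSeq windows of the mouse assembly GRCm38.p6 were found for 23 of the 29 genes, and none was found for Slc7a5, Slc25a44, Dbt, Abat, Mut and Acat1. The stretches printed lie outside annotated genes. Bcat2 and Mmachc are not printed, as such a stretch in their window was too short or absent. Capitals mark the GC box GGGCGG and the CCAAT box CCAAT, on either strand.
Bckdhb, chr9:83925006-83925110, plus strand: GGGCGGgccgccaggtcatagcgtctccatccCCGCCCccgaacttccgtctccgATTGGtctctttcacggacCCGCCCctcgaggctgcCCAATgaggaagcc
Ppm1k, chr6:57535553-57535702, minus strand: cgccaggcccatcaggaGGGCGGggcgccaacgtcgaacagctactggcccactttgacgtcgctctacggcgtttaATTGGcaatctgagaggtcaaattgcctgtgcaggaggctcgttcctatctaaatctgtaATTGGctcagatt
Mcee, chr7:64392472-64392621, plus strand: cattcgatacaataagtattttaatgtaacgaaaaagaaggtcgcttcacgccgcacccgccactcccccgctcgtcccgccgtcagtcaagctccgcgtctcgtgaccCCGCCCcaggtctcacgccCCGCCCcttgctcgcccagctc
The Bckdhb stretch holds 3 GC boxes and 2 CCAAT boxes, that of Ppm1k holds 1 and 2, and that of Mcee holds 2 and 0. G and C make up 67.6%, 54.7% and 61.3% of their letters.

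In the 250 bases before each start, GGGCGG occurred in 14 of the 23 genes, or 15 of their 29 windows, and in 32.7% of all 32851 windows. CCAAT occurred in 14 of 23 genes, or 16 of 29 windows, and in 33.8% of all windows. GGGCGG and CCAAT were each found in 7 of the 10 called genes with a window. The CACCC box (CACCC) occurred in 16 of 23 genes, or 18 of 29 windows, and in 52.0% of all windows. The E-box CACGTG was in 1 gene (Mccc2) and 6.02% of windows. The palindromic NRF1 motif was in 3 (Hibadh, Mmaa and Pccb) and 3.74%, and the AP-1 motif TGAGTCA in 1 (Acadsb) and 4.46%. The letters TCAAGGTCA, bound by estrogen-related receptors, and the spaced direct repeat bound by PPAR with RXR were in 0 of the 23 windowed genes and in 0.387% and 0.0335% of windows. These matches describe letters only, several members have more than 1 window, and GC-rich motifs are frequent in GC-rich promoters.

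Transport genes hardly differed. Slc7a5 encodes LAT1, which exchanges large neutral amino acids across the plasma membrane, and it ran from 7.99 to 8.29 (median 8.04) in controls and from 8.0 to 8.50 (median 8.15) after anti-FGFR1. Slc25a44, the carrier that takes branched-chain amino acids into mitochondria, ran from 10.23 to 10.58 (median 10.41) in controls and from 10.20 to 10.64 (median 10.46) after the antibody. Their differences were 0.10 ± 0.08 and 0.04 ± 0.08 (SE, n = 6 per group), the groups overlapped for each, and neither was called. The other 2 probe sets of Slc25a44 were at 0.03 and 0.06.

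The mitochondrial aminotransferase was called and the cytosolic form was not. Bcat2, the mitochondrial enzyme, ran from 8.67 to 8.80 (median 8.72) in controls and from 8.98 to 9.22 (median 9.12) after anti-FGFR1. The lowest treated mouse was thus above the highest control, and the difference was 0.38 ± 0.05 (SE), or 1.30-fold. For Bcat1, the cytosolic enzyme, values ran from 7.92 to 8.36 (median 8.22) and from 8.03 to 8.64 (median 8.45). It had the largest difference among the genes not called (0.23 ± 0.10) and the widest spread of the list (SD 0.17 and 0.21); anti-FGFR1 mouse 1 lay among the controls and the other 5 lay above the highest of them. Without anti-FGFR1 mouse 1, Bcat1 was at 0.30 and was called. Its dimmer probe sets were at 0.09 and 0.02. Within each mouse, Bcat2 relative to Bcat1 changed by 0.15 ± 0.24 (SD), and 1 of 6 anti-FGFR1 mice was above all controls, so an unequal change of the pair was within the spread.

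The dehydrogenase complex held the gene with the largest difference of the list. Dbt encodes the E2 core that transfers the acyl group to coenzyme A. It ran from 11.02 to 11.14 (median 11.07) in controls and from 11.43 to 11.71 (median 11.64) after anti-FGFR1, a gap of 0.28 between the groups, and its difference was 0.53 ± 0.05 (SE), or 1.45-fold. Bckdhb, the beta subunit of the E1 decarboxylase, ran from 11.69 to 11.93 (median 11.75) and from 11.95 to 12.12 (median 12.04), with a difference of 0.26 ± 0.05. All 6 anti-FGFR1 mice were above the controls for each, narrowly so for Bckdhb. Bckdha, the alpha subunit that carries the phosphorylation sites, overlapped between the groups, from 11.84 to 12.23 (median 12.08) and from 12.01 to 12.25 (median 12.16), with a difference of 0.10 ± 0.06. Within each mouse, Dbt relative to Bckdha was 0.43 ± 0.07 (SD) above the control mean, from 0.32 to 0.54, while controls ran from -0.10 to 0.19. Dbt alone already separated the groups, so the pair is no separate result. Bckdhb relative to Bckdha changed by 0.16 ± 0.07 (SD), with 3 of 6 anti-FGFR1 mice above all controls.

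Of the enzymes that switch the complex, the phosphatase was called and the kinase was not. Ppm1k, the mitochondrial phosphatase that reactivates it, ran from 8.41 to 8.64 (median 8.49) in controls and from 8.66 to 8.86 (median 8.75) after anti-FGFR1. Its groups just cleared each other, with a difference of 0.25 ± 0.06 (SE), and its dimmer probe set was at 0.30 ± 0.06. Bckdk, the kinase that inactivates the complex, ran from 10.93 to 10.999 (median 10.97) and from 10.84 to 10.98 (median 10.95), a difference of -0.03 ± 0.04 with overlapping groups, and 0.05 on its other probe set. Within each mouse, Ppm1k relative to Bckdk was 0.28 ± 0.11 (SD) above the control mean, with all 6 anti-FGFR1 mice (0.17 to 0.48) above all controls (-0.11 to 0.12). Ppm1k alone already separated the groups and Bckdk was level, so the pair is no separate result. With the 3' to 5' covariate described below, Ppm1k was at 0.14 ± 0.05 and was not called. These are transcript levels, and the arrays carry no measure of phosphorylation.

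In the leucine branch, both carboxylase subunits were called, with like differences on the probe sets used. Mccc1 and Mccc2 encode the biotin-carrying alpha and the beta subunit of methylcrotonyl-CoA carboxylase. Mccc1 ran from 11.46 to 11.71 (median 11.54) in controls and from 11.63 to 11.88 (median 11.84) after anti-FGFR1, a difference of 0.26 ± 0.06 (SE). Mccc2 ran from 10.91 to 11.18 (median 11.02) and from 11.09 to 11.36 (median 11.27), a difference of 0.24 ± 0.06. For each, 5 of 6 anti-FGFR1 mice were above all controls, and mouse 6 lay below the highest control. Relative to Mccc2 within a mouse, Mccc1 changed by only 0.02 ± 0.05 (SD) on these probe sets. The other probe set of Mccc1 was called at 0.39 ± 0.07 (SE), with all 6 anti-FGFR1 mice above the controls. Those of Mccc2 were at 0.20 ± 0.07 and 0.12 ± 0.07 and were not called.

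Ivd, isovaleryl-CoA dehydrogenase, precedes them and depended on the probe set. On the brighter one it ran from 10.97 to 11.13 (median 11.06) and from 11.05 to 11.34 (median 11.19), a difference of 0.15 ± 0.05 that was not called, while the dimmer one was at 0.36 ± 0.07 and was called among probe sets. Auh, which hydrates methylglutaconyl-CoA, was not called, from 11.56 to 11.78 (median 11.69) and from 11.51 to 11.66 (median 11.63), a difference of -0.06 ± 0.05; its 5 dimmer probe sets lay between -0.01 and 0.12.

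Of 7 genes in the isoleucine and valine branch, 2 were called higher, beside 2.94% of all genes, and nothing is read from the count. Hibch, which frees hydroxyisobutyrate from its CoA ester in valine breakdown, ran from 11.97 to 12.28 (median 12.09) in controls and from 12.24 to 12.48 (median 12.45) after anti-FGFR1. Only anti-FGFR1 mouse 6 fell within the control range, and the difference was 0.32 ± 0.06 (SE), or 1.24-fold, against 0.38 ± 0.14 on the dimmer probe set. Aldh6a1, methylmalonate semialdehyde dehydrogenase, ran from 12.27 to 12.51 (median 12.42) and from 12.43 to 12.74 (median 12.68), a difference of 0.22 ± 0.06. Leaving out control mouse 3, 4 or 6 or anti-FGFR1 mouse 1, 2, 3 or 4 (7 of 12 arrays) ended its call. The difference was then between 0.19 and 0.21, and the gene did not pass among probe sets.

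The remaining 5 genes of that branch overlapped between the groups. Hibadh, the dehydrogenase between Hibch and Aldh6a1, differed by 0.09 ± 0.05 and had 5 of 6 anti-FGFR1 mice above all controls. Acadsb, the acyl-CoA dehydrogenase of isoleucine, ran from 10.36 to 10.75 (median 10.62) in controls and from 10.43 to 10.84 (median 10.73) after anti-FGFR1, a difference of 0.11 ± 0.07. Acad8, its counterpart for valine, differed by 0.02 ± 0.05. Hsd17b10, a hydroxyacyl-CoA dehydrogenase of isoleucine, was at -0.01 ± 0.06. Abat, the GABA transaminase, which is also listed with valine breakdown, was dim (control mean 6.65) and at 0.03 ± 0.06.

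Of 7 genes in the propionyl-CoA route, 4 were called higher, beside 2.94% of all genes, and nothing is read from this count. Mcee, methylmalonyl-CoA epimerase, ran from 11.35 to 11.68 (median 11.59) in controls and from 11.81 to 12.07 (median 11.91) after anti-FGFR1, with no overlap and a difference of 0.38 ± 0.07 (SE), or 1.30-fold. Pcca, the biotin-carrying alpha subunit of propionyl-CoA carboxylase, ran from 12.31 to 12.64 (median 12.47) and from 12.63 to 12.82 (median 12.77), a difference of 0.25 ± 0.06 in which anti-FGFR1 mouse 6 and control mouse 4 met. Its partner Pccb, the beta subunit, was alike in the groups, from 11.97 to 12.10 (median 12.03) and from 11.87 to 12.13 (median 12.01), at -0.0034 ± 0.05. Within each mouse, Pcca relative to Pccb was 0.26 ± 0.07 (SD) above the control mean, with 4 of 6 anti-FGFR1 mice above all controls. As Pccb was level, this pair restates the difference of Pcca.

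Mut, the cobalamin-dependent mutase that makes succinyl-CoA, ran from 11.70 to 11.85 (median 11.75) and from 11.78 to 12.11 (median 11.999), with 5 of 6 anti-FGFR1 mice above all controls and a difference of 0.22 ± 0.06 (SE). Its call was lost without control mouse 5 or 6 or anti-FGFR1 mouse 1, 2, 3 or 5 (6 of 12 arrays), at 0.19 to 0.21. A second probe set of Mut was called at 0.21, and the third, near the floor of the array with a control mean of 3.91, was at 0.01. Mmachc, which processes cobalamin for use as a cofactor, ran from 10.11 to 10.28 (median 10.19) and from 10.34 to 10.53 (median 10.38), with all 6 anti-FGFR1 mice above the controls and a difference of 0.20 ± 0.05. Mmaa and Mmab, which deliver and adenosylate the cofactor of Mut, differed by 0.11 ± 0.07 and 0.02 ± 0.05 and overlapped between the groups.

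At the ends of the pathway, Oxct1, which activates ketone bodies by moving CoA from succinyl-CoA to acetoacetate, ran from 11.86 to 12.01 (median 11.93) in controls and from 11.92 to 12.17 (median 12.08) after anti-FGFR1. Acat1, the mitochondrial thiolase that makes acetyl-CoA, ran from 13.19 to 13.30 (median 13.23) and from 13.24 to 13.41 (median 13.37). Their differences were 0.15 ± 0.05 and 0.11 ± 0.04 (SE); 5 of 6 anti-FGFR1 mice were above all controls for each, and neither was called. Oxct1 was called without anti-FGFR1 mouse 6 (0.18), after a further quantile normalization, with an intensity trend in the variance and with the mean of its 4 probe sets. That averaging called 14 of the 29 genes, Ivd and Oxct1 added, beside 2.82% of all genes called higher.

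**Figure D2:**
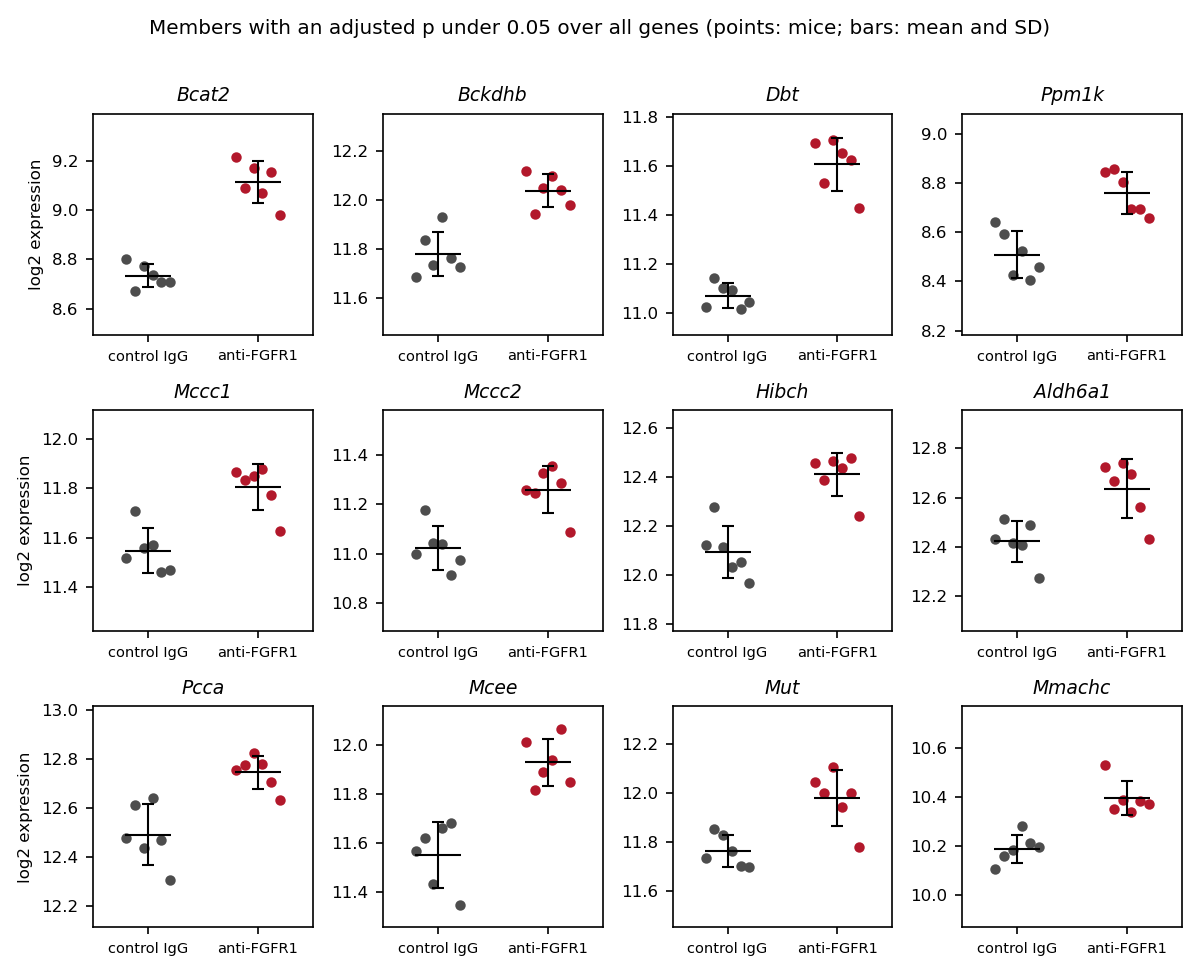
Log2 expression of the 12 called genes in each mouse, with the mean and SD of each group (n = 6). Bcat2, Bckdhb, Dbt, Ppm1k, Mcee and Mmachc show no overlap; in the other 6 panels the lowest anti-FGFR1 mouse falls within the control range.

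The 29 genes are read by 60 probe sets, 18 genes by several and 11 by 1 each. Fitted across all 45037 probe sets that are not controls, 15 of the 60 were called higher and 0 lower, beside 5.32% of all probe sets called in either direction, 1.66% higher and 3.66% lower. They came from 12 genes, among them Ivd and not Aldh6a1, and 53 of the 60 were above 0 (median 0.11). In 13 of the 18 genes with several probe sets all had the same sign. The 5 with mixed signs were Bckdk, Auh, Hsd17b10, Abat and Mmab, none of which was called.

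**Figure D3:**
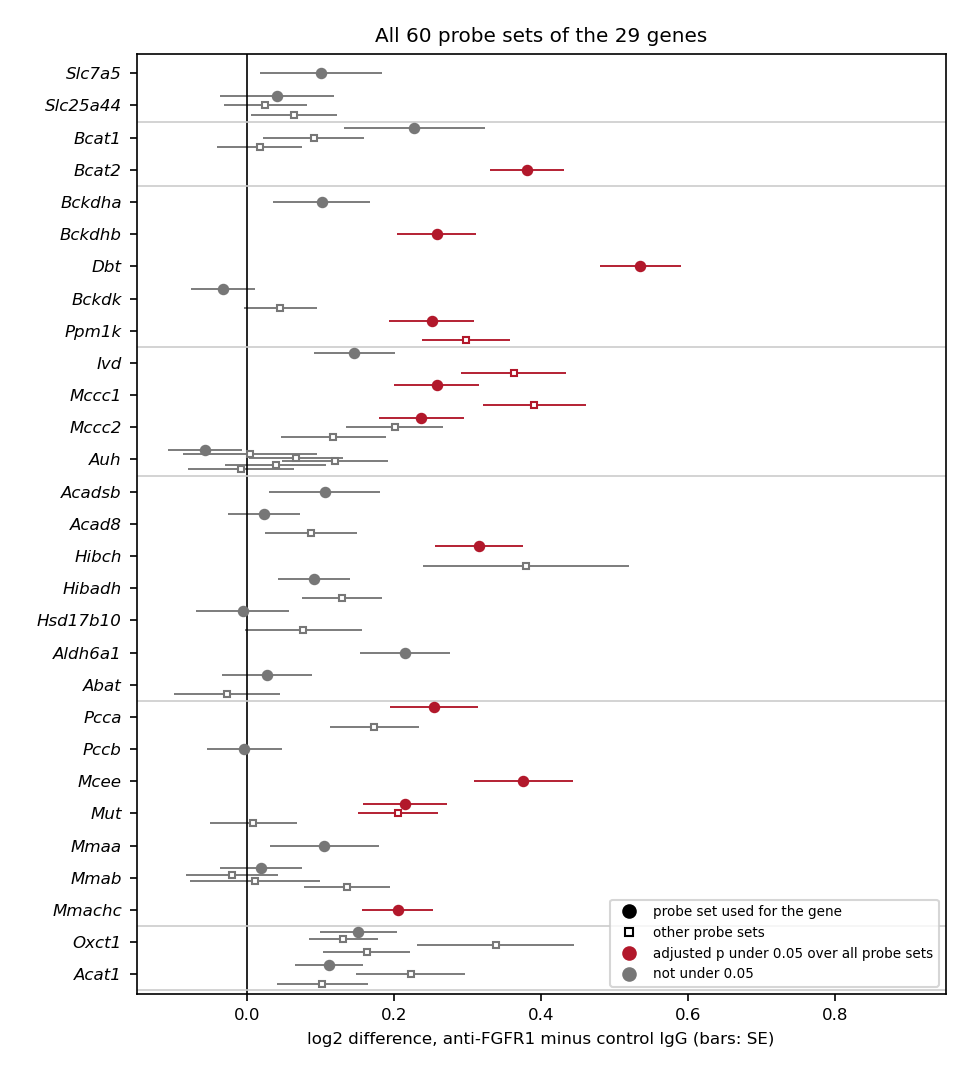
Log2 difference (anti-FGFR1 minus control IgG, with SE) of every probe set of the 29 genes, in pathway order. Filled circles are the probe sets used for the gene and open squares the others; red marks an adjusted p under 0.05 over all probe sets, and the values run from -0.06 (Auh) to 0.53 (Dbt).

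Mice of a group were not equal across the list. Anti-FGFR1 mouse 6 was the lowest of its group in 20 of the 29 genes, and the mean of the 29 genes was 10.89 in it against 10.99 to 11.03 in the other anti-FGFR1 mice. Among controls, mouse 6 was the lowest in 12 genes and mouse 2 the highest in 10, with list means from 10.77 (mouse 6) to 10.89 (mouse 2). In the list mean, anti-FGFR1 mouse 6 was level with the highest control. Skeletal muscle markers were low in control mouse 6 (9.32) and not in anti-FGFR1 mouse 6 (10.999). Leaving out anti-FGFR1 mouse 6 gave 13 called genes, and leaving out control mouse 6 gave 10. Of all 18193 genes, 465 and 520 were then called higher.

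A sign of RNA quality also differed between the groups. The log2 signal at the 3' end minus that at the 5' end of the control probe sets for Actb and Gapdh, ran from 0.14 to 0.22 in controls (mean 0.16 ± 0.03 SD) and from 0.16 to 0.23 in the treated mice (mean 0.20 ± 0.03 SD, n = 6). With this measure as a covariate in limma, 4 of the 12 genes were still called (Bcat2, Bckdhb, Dbt and Mcee), beside 3.78% of all genes called, 1.54% higher. The 8 others kept between 57.1% (Ppm1k, at 0.14 ± 0.05) and 108% (Mmachc) of their difference. Over the 12 genes the median share kept was 94.8%, and the SE grew by a median of 1.30 times. The part of RNA quality in the differences was not tested. Adding instead the mean of the muscle markers left the same 12 genes called. Without control mouse 6 and anti-FGFR1 mouse 5, the mice lowest in muscle markers, 9 of the 12 were called beside 5.58% of all genes called, 2.12% higher, and Mccc2 (0.22), Aldh6a1 (0.20) and Mut (0.20) were not.

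**Figure D4:**
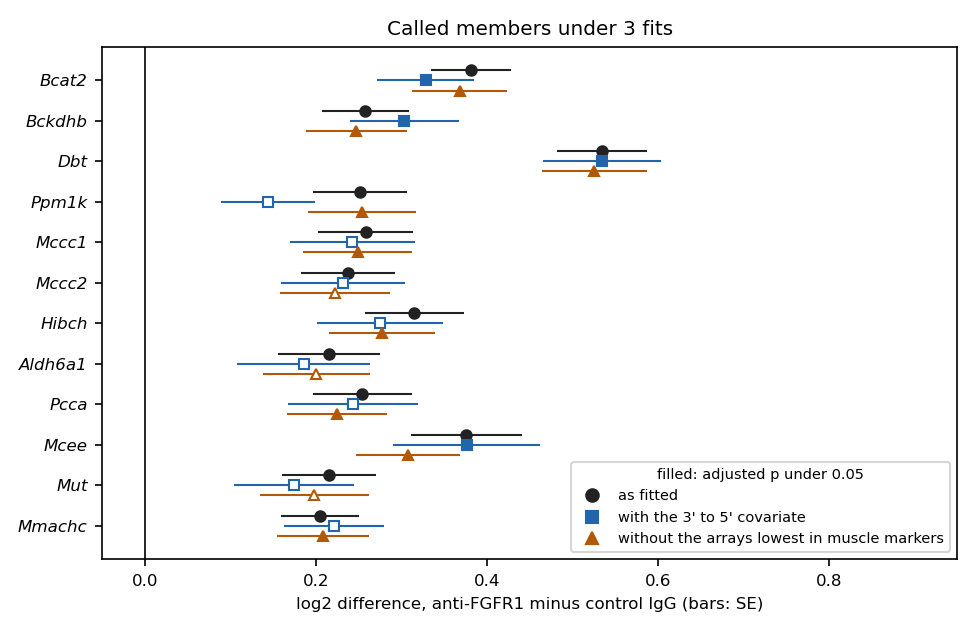
Log2 difference with SE of the 12 called genes as fitted (circles), with the 3' to 5' measure as a covariate (squares) and without the 2 mice lowest in muscle markers (triangles); filled symbols have an adjusted p under 0.05 over all genes. All values stay above 0, and Ppm1k shows the largest drop with the covariate, from 0.25 to 0.14.

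Among 46 other genes analysed that serve the pathway, 3 were called higher and 2 lower, with a median difference of 0.03. These genes too were listed with earlier results of these data known. Their p-values, here and below, therefore describe the fit and are no independent evidence. The share called was 10.9%, near the 8.03% of all genes (2.94% higher and 5.09% lower), so nothing is read from the count. Of these 46, 2 were called without anti-FGFR1 mouse 1 and 3 without control mouse 3 or 5 or anti-FGFR1 mouse 2. Enzymes shared with fatty acid oxidation and ketone metabolism were nearly level on the probe sets used, with a median of 0.03. Of 23 measured, 1 was called higher and 0 lower by limma (3 higher and 0 lower at an unadjusted p under 0.05). The called gene, Acsf3, a mitochondrial enzyme that activates malonate and methylmalonate, ran from 10.30 to 10.68 (median 10.51) in controls and from 10.65 to 10.78 (median 10.76) after anti-FGFR1. It rose by 0.23 ± 0.06 (SE, limma adjusted p = 0.0237) with 5 of 6 anti-FGFR1 mice above all controls, and the call was lost without anti-FGFR1 mouse 1, 4 or 5 (0.22 each) and without both mice lowest in muscle markers (0.21). Echs1, a crotonase that the valine and isoleucine branches share with fatty acid oxidation, differed by 0.14 ± 0.04 and Etfb, an electron acceptor of the acyl-CoA dehydrogenases, by 0.10 ± 0.04 (limma adjusted p = 0.0773 and 0.205). Without anti-FGFR1 mouse 6, Echs1 was called at 0.16. A dim probe set of Etfdh (control mean 6.70) was called lower among probe sets at -0.60 ± 0.11, against 0.06 on the one used. For Hmgcs1 a dim probe set (control mean 6.34) was at -0.48 ± 0.14 and did not pass, against -0.03 on the one used.

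Carriers of amino acids changed in both directions. Slc43a2, the transporter LAT4 for branched-chain amino acids and other neutral ones, ran from 9.59 to 10.15 (median 10.09) in controls and from 10.25 to 10.63 (median 10.40) after anti-FGFR1. It rose by 0.42 ± 0.09 (SE, limma adjusted p = 0.00992) in all 6 mice relative to all controls, while its 2 dimmer probe sets were at 0.07 and 0.22 and did not pass. Slc7a6, a light chain that pairs with Slc3a2 to exchange basic for neutral amino acids, ran from 10.16 to 10.29 (median 10.23) and from 9.74 to 10.05 (median 9.84). Its log2 difference was -0.38 ± 0.05 (SE, limma adjusted p = 0.000609), with 6 of 6 mice below all controls, with -0.18 on its dimmer probe set. Of the 9 carriers measured 7 did not pass, among them Slc3a2, the heavy chain of LAT1 (0.15 ± 0.12), and Slc43a1, the related transporter LAT3 (0.14 ± 0.05, limma adjusted p = 0.115). The share of carriers called was 22.2%, beside 8.03% of all genes, and with 9 genes nothing is read from it. Slc43a1 was called without control mouse 4 (0.18).

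Among 10 genes that handle biotin and cobalamin, 1 was called lower and 0 higher by limma (1 higher and 2 lower at an unadjusted p under 0.05). Over all genes 5.09% were called lower and 2.94% higher. Mtr, the cobalamin-dependent methionine synthase, ran from 7.92 to 8.27 (median 8.04) in controls and from 7.60 to 7.90 (median 7.86) after anti-FGFR1. Its log2 difference was -0.27 ± 0.07 (SE, limma adjusted p = 0.0305), with 6 of 6 mice below all controls, a call lost without control mouse 3 or 5 or anti-FGFR1 mouse 1 or 2 (-0.23 to -0.25) and with the 3' to 5' covariate (-0.18 ± 0.09). Tcn2, the cobalamin carrier of plasma, differed by 0.14 ± 0.05 on the probe set used, and between 0.18 and 0.20 on its 4 others, of which 1 passed among probe sets, as did their mean (0.18). Lmbrd1, which exports cobalamin from lysosomes, differed by -0.15 ± 0.05, against 0.09 and 0.05 on its other probe sets, and was called without control mouse 1 (-0.18).

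Beside 8.03% of all genes called, 1 of 4 transcription factors tied to this metabolism was called, Klf15. It is known to drive genes of amino acid breakdown, and it ran from 7.95 to 9.0 (median 8.37) in controls and from 8.83 to 9.29 (median 9.03) after anti-FGFR1. Control mice 1 (9.0) and 4 (8.84) lay within the treated range, and the controls varied more than the treated mice. Klf15 rose by 0.62 ± 0.16 (SE, limma adjusted p = 0.0283) with 3 of 6 anti-FGFR1 mice above all controls. The 3' to 5' covariate ended the call, at 0.32 ± 0.17. It was also lost without control mouse 3, 5 or 6 or anti-FGFR1 mouse 1, 2 or 6 (0.52 to 0.62), and without both mice lowest in muscle markers (0.55). Pparg, the adipocyte regulator, differed by 0.15 ± 0.10, Mlxipl, the carbohydrate-responsive factor ChREBP, by 0.01 ± 0.04 and Ppara by -0.02 ± 0.08.

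**Figure D5:**
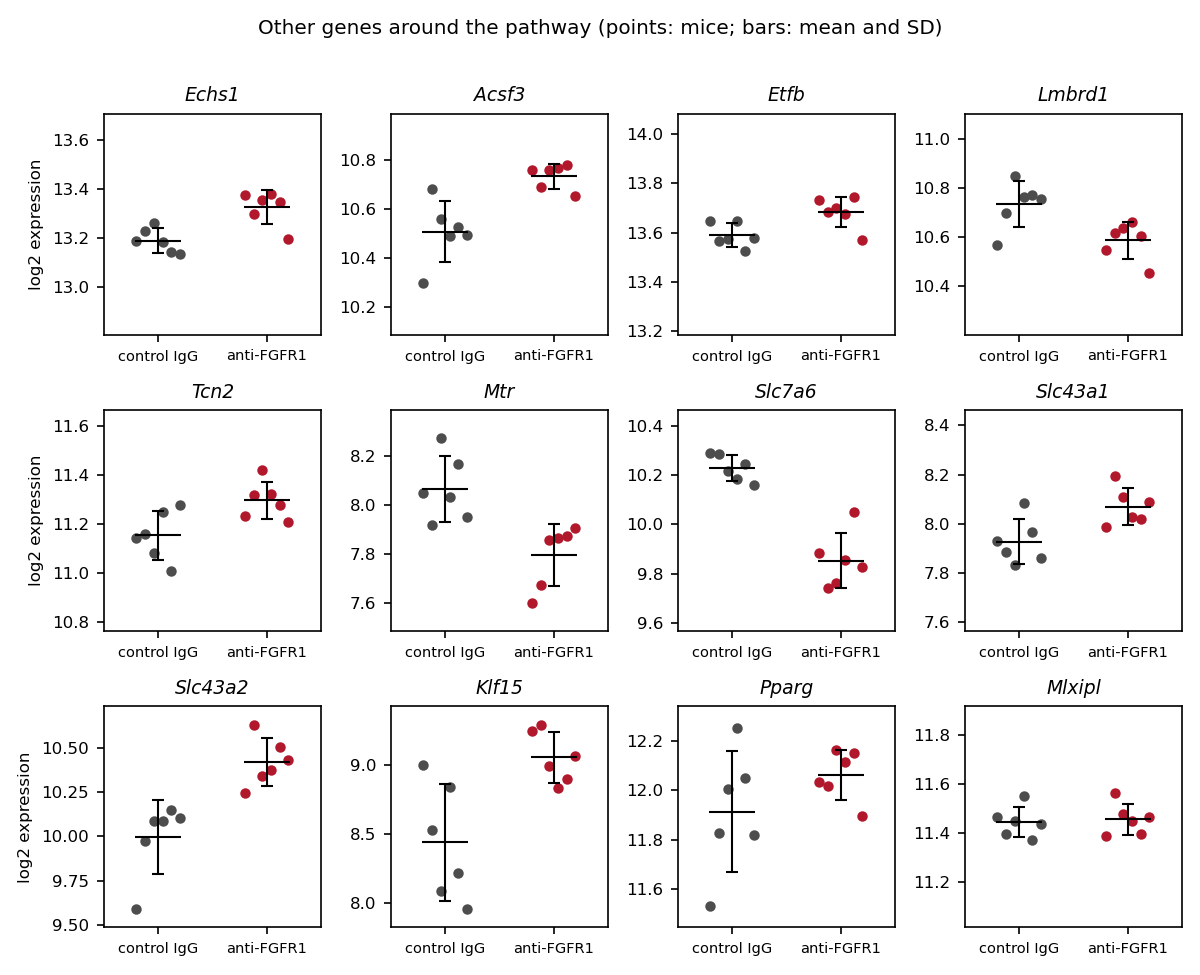
Log2 expression of 12 other genes around the pathway in each mouse, with the mean and SD of each group (n = 6). Slc43a2 lies wholly above and Slc7a6 and Mtr wholly below the controls after anti-FGFR1. Acsf3 overlaps at the edge, only 3 of 6 anti-FGFR1 mice exceed all controls for Klf15, and Mlxipl is level.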

How the data were processed

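Values were taken from a deposited log2 expression table of 12 arrays, made by the authors with RMA and limma, per the submitters' processing notes; versions and settings are not given in the sources used here. RMA pulls differences of dim probe sets toward 0. Arrays give no counts, so their number limits the precision. Of 45101 probe sets, 64 controls were set aside, 34945 name 1 gene, 932 several and 9160 none; 34741 were matched to a RefSeq table (GRCm38.p6) by Entrez identifier. A gene is represented by its brightest probe set, judged on the mean of the 12 arrays.

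The comparison used lmFit and eBayes of limma 3.58.1 (R 4.3.3), two-sided and without covariate, with Benjamini-Hochberg adjustment over all genes. The script was tested on simulated data. The 29 genes and the other lists were chosen with earlier results of these data known. Text names the 29 genes and, of the 46 other pathway genes, those called and the 3 with the smallest p per list. Slc3a2, Ppara, Etfdh and Hmgcs1 were added after their values were seen, Etfdh and Hmgcs1 for a dim probe set. Alternatives were a further quantile normalization, median centring, the mean of probe sets, a dim filter, an intensity trend, a replicate block, covariates and leaving out arrays. Motifs were chosen by hand and searched on both strands. The gene pairs compared within a mouse were also chosen by hand, and no share over all pairs was computed.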

Additional observations from a re-analysis of the deposited data

Results flagged for a closer look

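In 41 genes (the 29 of the list and 12 others named) and 2 groups of 6 mice, 4 of 82 sets of values held a mouse whose gap to the nearest other exceeded, as a share of the group's range, Dixon's 95% critical value; chance gives about 1 in 20. Acadsb was 10.43 in anti-FGFR1 mouse 6, below the next value of 10.72. Abat was 6.88 in control mouse 3, above the next value of 6.64. Mmachc was 10.53 in anti-FGFR1 mouse 1, above the next value of 10.39. Slc43a2 was 9.59 in control mouse 1, below the next value of 9.97. No explanation of these values was tested.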

How the results depend on the processing

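Called genes of the list numbered 12, and between 11 and 14 under another normalization, centring, the mean of probe sets, the dim filter, the intensity trend and the muscle covariate, with 0 lower. Leaving out 1 array gave 10 to 13, and 10 of the 12 genes kept their call in all 12 leave-outs, with Aldh6a1 and Mut the exceptions. The list was chosen on these same arrays, so a call that was kept is no test of it. How many of the other called genes kept their call was not counted. The 3' to 5' covariate gave 4 called genes of the list, 5 of its probe sets (15 without it), 3 other pathway genes (5 without it) and 688 of all genes (1461 without it); the cause was not tested. Without both mice lowest in muscle markers, an alternative chosen after seeing the data, 9 genes and 8 probe sets of the list and 3 other pathway genes were called. Of all genes, 1016 were then called. Leaving out 1 array gave 1043 to 1698 calls over all genes, 2 to 6 other pathway genes and 11 to 21 probe sets of the list. The lowest of the other pathway genes (2) came without anti-FGFR1 mouse 1, and 3 were called without control mouse 3 or 5 or anti-FGFR1 mouse 2; the cause was not tested. The replicate block gave 12 genes of the list, the same 12, 1337 of all genes, 16 probe sets of the list and 5 other pathway genes. Deviations of same-numbered mice correlated at 0.29, 0.33 and 0.22 for numbers 1 to 3, each the best match of its control, and at 0.00 or below for the others, so whether the numbers pair the mice is not settled. No called difference changed sign under any alternative. A scaling moved the median of all genes by at most 0.01. With 6 arrays per group, a gene that was not called may still differ.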
